A study of Rattus norvegicus with 30 samples.

Results

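Genes for 9 clotting proteins that the liver makes for the plasma were examined in the livers of handled and unhandled rats: F2, F5, F7, F9, F10, F11, Proc, Plg and Serpinc1. They were chosen by symbol, with every probe set annotated to one of these symbols alone. Of the 9 genes, 7 had a probe set, 1 each, which made 7 of the 31042 probe sets tested and 7 of the 14217 genes with a probe set. F7 and F11, which encode factors VII and XI, had no listed probe set and were not analysed further.

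Livers of 30 Sprague-Dawley rats, all female and 10 weeks old, were profiled on Affymetrix rat genome arrays with RNA of the left lobe, 1 array per rat. Of these rats, 10 were handled on 1 day and euthanised on day 2, 10 were handled daily for 4 days and euthanised on day 5, and 10 control rats were left unhandled and euthanised on day 2. Handling consisted of weighing, restraint in a Broome restrainer, water given by oral gavage, and tail vein bleeding 1, 2, 4 and 8 hours after the dose on day 1 or on day 4. All rats shared the sex, strain, age and liver lobe. Since no unhandled rats were euthanised on day 5, 4 days of handling and the later day cannot be told apart. Both handled groups were compared with the same 10 control rats.

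Clotting runs as a cascade of serine proteases that circulate as inactive precursors. Each protease is cut into its active form by the one before it, with factor V as a cofactor that is not a protease, until thrombin, made from prothrombin, turns fibrinogen into fibrin. Antithrombin and activated protein C hold the cascade back, and plasmin, made from plasminogen, dissolves the clot. Hepatocytes make most of these proteins, and prothrombin, factors VII, IX and X and protein C need a vitamin K dependent carboxylation before they are secreted.

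No measured gene of the 7 differed between groups beyond the threshold, an adjusted p under 0.1 in limma with Benjamini-Hochberg adjustment over all probe sets. The count was 0 of 7 after 1 day, where 0.0902% of all probe sets was called, and 0 of 7 after 4 days, where 0.657% was called. After both 1 and 4 days of handling, F5, the gene for factor V, had a higher mean level than in control rats, by 1.29-fold and 1.35-fold, and by 1.06-fold and 1.10-fold when 3 low control rats were left out. F9, the gene for factor IX, came next at 1.09-fold and 1.11-fold. F2, F10, Proc, Plg and Serpinc1 lay between 0.973-fold and 1.05-fold of the control level on both days.

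HNF1 and HNF4 are transcription factors that act at the promoters of many liver genes. The sequence just upstream of the annotated start is therefore shown for 4 genes. These are F5 and F9, which had the largest mean differences from all 10 control rats, and F2 and Plg, which had small ones. The largest difference after 1 day was that of Proc when control rats 1 to 3 were left out. All are the 100 bases before the start in RefSeq's annotation of the GRCr8 build, written 5′ to 3′ on the strand of the gene. Capitals mark 2 motifs searched on both strands, GTTAAT (a half-site of HNF1) and CAAAGNNCA (a half-site of HNF4), with N for any base. F2 lies on the minus strand at chr3:98065247-98065346, F5 on the plus strand at chr13:79046557-79046656, F9 on the plus strand at chrX:143388542-143388641 and Plg on the minus strand at chr1:50915407-50915506.
F2: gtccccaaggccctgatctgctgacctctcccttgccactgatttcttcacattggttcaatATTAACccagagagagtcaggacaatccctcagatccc
F5: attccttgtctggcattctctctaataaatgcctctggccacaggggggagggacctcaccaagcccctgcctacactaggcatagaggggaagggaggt
F9: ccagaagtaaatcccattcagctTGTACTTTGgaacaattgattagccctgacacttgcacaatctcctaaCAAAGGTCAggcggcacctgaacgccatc
Plg: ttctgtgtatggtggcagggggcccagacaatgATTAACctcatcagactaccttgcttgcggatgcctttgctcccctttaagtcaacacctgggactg

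In windows of 300 bases, 250 before the start and 50 after it, the HNF1 half-site was found in 3 of the 9 genes, F2, Proc and Plg, and in 7.45% of 33469 RefSeq promoters of the same length. In F2 and in Proc it stood 38 to 33 bases before the start used here. For Proc the 100 bases before that start, chr18:24048942-24049041 on the minus strand, lie inside the annotated gene, which reaches to 24049061. Its match is thus not upstream of the whole gene. The start used for F7 also lies inside its annotated gene, as the bases before it begin at 83202739 and the gene reaches to 83202775. The HNF4 half-site was found in 2 of the 9 genes, F7 and F9, and in 6.08% of the promoters. F9 held it at 77 to 69 and at 29 to 21 bases before the annotated start. The bases after that start open with ATG, so it may be the start of the coding sequence and not of transcription. F5, F10, F11 and Serpinc1 held neither motif in this window. No match overlapped another, and a match is a description of letters only.

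Levels are given as intensities on a linear scale on which the mean of an array is about 1, and differences are of log2 intensities. An intensity is comparable between rats for 1 probe set but not between genes. Prothrombin, the precursor of thrombin, is encoded by F2. Its intensity had a lowest, median and highest value of 41.6, 43.3 and 46.1 in rats handled for 1 day, 42.3, 43.2 and 45.6 in rats handled for 4 days, and 39.7, 41.8 and 44.1 in control rats. The 3 groups overlapped throughout most of their range. The log2 mean was 5.43 ± 0.039 after 1 day, 5.44 ± 0.036 after 4 days and 5.39 ± 0.046 in control rats (SD, n = 10 each). These differences of 0.05 on both days did not pass limma's test (adjusted p = 0.750 and 0.646).

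Factor X, encoded by F10, is the protease that cuts prothrombin. Its intensity was 17.6, 19.3 and 20.5 (lowest, median, highest) after 1 day, 17.8, 19.0 and 20.7 after 4 days, and 17.0, 19.0 and 19.8 in control rats. The ranges overlapped nearly completely. The log2 differences from control were 0.04 and 0.02 (limma, adjusted p = 0.812 and 0.896).

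Factor IX, encoded by F9 on the X chromosome and missing or defective in haemophilia B, activates factor X. Its intensity was 25.2, 26.4 and 28.7 (lowest, median, highest) after 1 day, 25.6, 27.2 and 28.3 after 4 days, and 20.8, 25.2 and 26.7 in control rats. All 10 rats of each handled group lay above the control mean, but so did control rat 1 and control rats 4 to 10. Of the handled rats, 4 and 7 lay above every control rat. The log2 mean was 4.73 ± 0.063, 4.76 ± 0.045 and 4.61 ± 0.12 after 1 day, after 4 days and in control rats (SD, n = 10 each). The difference was 0.12 (SE 0.050) after 1 day and 0.15 (SE 0.050) after 4 days, with adjusted p of 0.460 and 0.216 in limma. Without control rats 1 to 3 the differences were 0.07 and 0.10 (adjusted p = 0.731 and 0.390), which is over 1.5 times smaller in each case.

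Factor V, encoded by F5, is the cofactor with which factor X cuts prothrombin. Its intensity was 14.2, 15.9 and 18.7 (lowest, median, highest) after 1 day, 14.6, 17.0 and 18.4 after 4 days, and 7.24, 14.4 and 18.1 in control rats. Control rats 1, 2 and 3 had 7.92, 7.24 and 8.55, and control rats 4 to 10 had 14.5, 14.2, 15.5, 13.6, 14.5, 16.7 and 18.1. Control rats 1 to 3 thus lay below all 27 other rats, and control rats 4 to 10 overlapped both handled groups. The control SD of 0.48 on the log2 scale exceeded the SD of 0.12 after 1 day and 0.10 after 4 days (n = 10 each).

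The F5 difference from control was 0.36 (SE 0.13, 95% interval 0.10 to 0.63) after 1 day and 0.43 (SE 0.13, 95% interval 0.16 to 0.69) after 4 days on the log2 scale. Neither passed limma's test over all probe sets (adjusted p = 0.365 and 0.160). All 10 rats of each handled group lay above the control log2 mean of 3.64. So did all of control rats 4 to 10 (lowest 3.76), so this count does not set handled rats apart. Without control rats 1 to 3 the differences were 0.08 (SE 0.067, adjusted p = 0.814) and 0.14 (SE 0.067, adjusted p = 0.416), or 1.06-fold and 1.10-fold. Against the mean of control rats 4 to 10, 7 and 9 of the 10 handled rats were higher.

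Protein C, encoded by Proc, becomes a protease that destroys activated factors V and VIII. Its intensity was 14.8, 16.0 and 18.3 (lowest, median, highest) after 1 day, 14.8, 16.6 and 17.1 after 4 days, and 13.5, 17.0 and 17.9 in control rats. Control rats 1, 2 and 3 had 16.8, 13.5 and 15.5, against 16.3 to 17.9 in control rats 4 to 10. Rats 2 and 3 lay below the other 7, and rat 1 lay among them. Proc had a log2 difference of -0.04 after 1 day and -0.01 after 4 days with all controls (limma, adjusted p = 0.859 and 0.956). Without control rats 1 to 3 it was -0.09 and -0.07 (adjusted p = 0.620 and 0.657), with 1 and 0 of the 10 handled rats above the mean of control rats 4 to 10.

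Antithrombin, encoded by Serpinc1, is a serpin that blocks thrombin and factor X. Its intensity was 51.1, 53.4 and 54.3 (lowest, median, highest) after 1 day, 52.8, 54.0 and 56.4 after 4 days, and 49.8, 52.2 and 53.5 in control rats. The spread was narrow, and 5 and 7 of the 10 handled rats lay above every control rat. The log2 difference was 0.03 after 1 day and 0.06 after 4 days (SE 0.038 each), and neither passed limma's test (adjusted p = 0.817 and 0.543). limma takes part of its error from the spread of all probe sets, and the SE from the 2 groups' own spread was 0.015 after 4 days. The methods' t-test with Benjamini-Hochberg adjustment called Serpinc1 after 4 days (adjusted p = 0.0995), as did the exact rank-sum test (adjusted p = 0.0813), at a size of 1.05-fold. With quantile normalization the difference after 4 days was 0.03, and over all alternatives it ran from 0.03 to 0.07.

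Plasminogen, encoded by Plg, is the precursor of the protease that dissolves fibrin. Its intensity was 43.3, 44.2 and 46.0 (lowest, median, highest) after 1 day, 43.3, 45.1 and 48.4 after 4 days, and 43.1, 44.8 and 46.9 in control rats. The 3 groups overlapped. The log2 difference was -0.01 after 1 day and 0.03 after 4 days (SE 0.040 each; limma, adjusted p = 0.979 and 0.828).

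**Figure D1:**
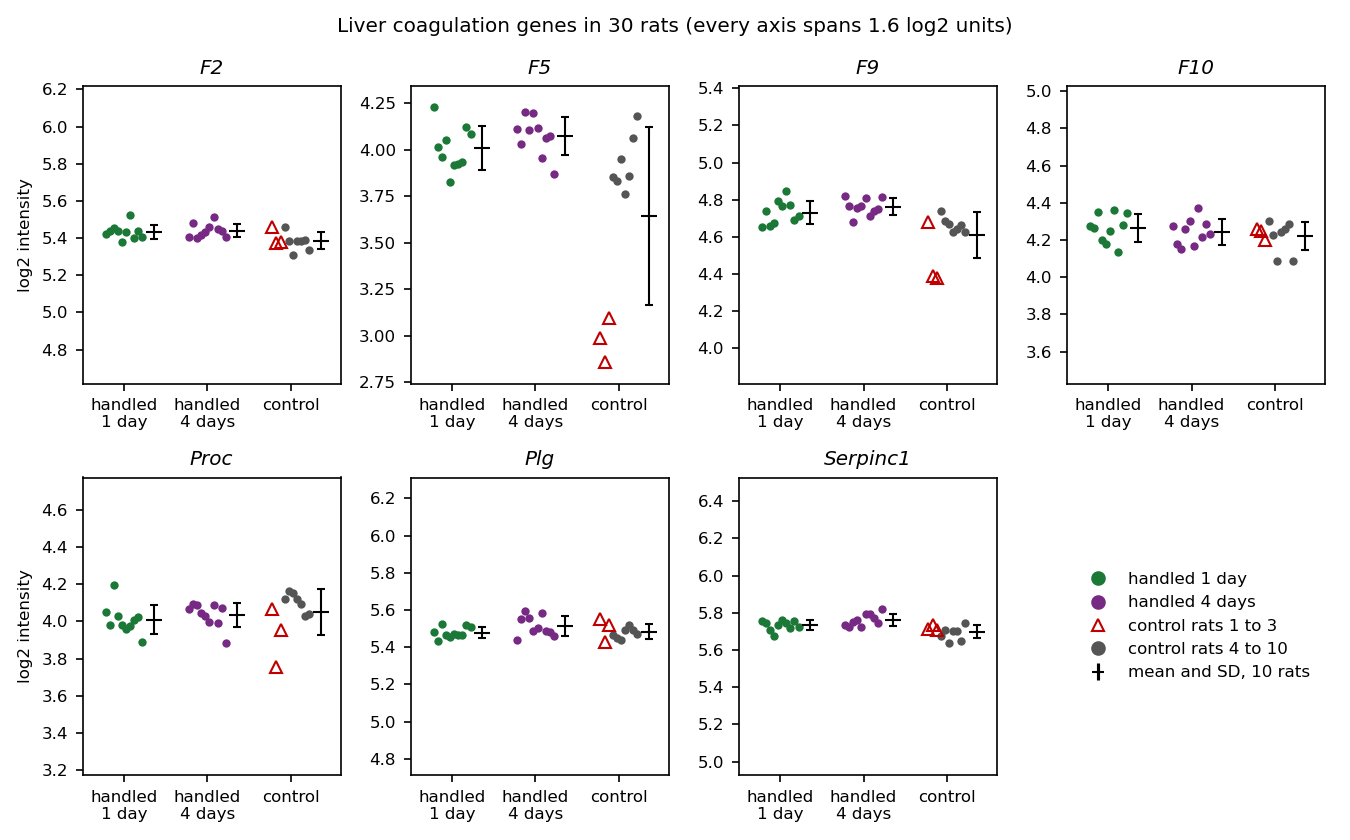
Log2 intensity of the 7 measured genes in each of 30 rats, by group, with the mean and SD of 10 rats beside each group and the same axis span in every panel. Control rats 1 to 3 (open triangles) lie apart from the other rats in F5, at intensities of 7.24 to 8.55, and 2 of the 3 are low in F9 and in Proc.

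The plot of log2 intensities shows the members' spread on one scale. Control SDs were 0.48 for F5, 0.12 for F9 and 0.12 for Proc, against 0.035 to 0.076 for F2, F10, Plg and Serpinc1. In F2, F10, Plg and Serpinc1 control rats 1 to 3 lay within or beside the other control rats.

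The 7 genes were also read against all probe sets at a looser threshold. At an unadjusted p under 0.05, F5 and F9 were higher on both days, 2 of 7, against 4.47% of all probe sets on the first day and 5.4% on the later day. No member was lower at this threshold, against 4.86% of all probe sets for 1 day and 5.89% for 4 days. Without control rats 1 to 3 the count of members that were higher was 0 after 1 day, against 3.75% of all probe sets, and 2 after 4 days, F5 and F9, against 5.25%. With the methods' t-test 0 members were called after 1 day and 1, Serpinc1, after 4 days, and with the exact rank-sum test 0 and 2, F9 (adjusted p = 0.0584) and Serpinc1. The median log2 difference of the 7 genes was 0.04 after 1 day and 0.05 after 4 days, beside -0.003 and 0.002 over all probe sets. Over the 393 probe sets at least as bright as the dimmest member it was 0.005 and 0.017.

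Rats handled for 4 days and for 1 day were set against each other to ask whether the response changed with repeated handling. The 7 log2 differences ran from -0.02 to 0.07 (limma, adjusted p = 0.995 to 0.997), with 0 of 7 called and 0% of all probe sets called. At an unadjusted p under 0.05 the counts were 0 of 7 and 1551 of 31042 (5%), and both other tests called 0 of 7. The 95% interval of this difference was -0.20 to 0.33 for F5 and -0.05 to 0.11 for Serpinc1. In the test over all 3 groups 0 of 7 was called (limma's F test, adjusted p = 0.261 for F5, 0.36 for F9 and 0.738 to 0.935 for the others), against 0.306% of all probe sets. The methods' analysis of variance called 1 of 7, Serpinc1 (adjusted p = 0.0837 after Benjamini-Hochberg adjustment).

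**Figure D2:**
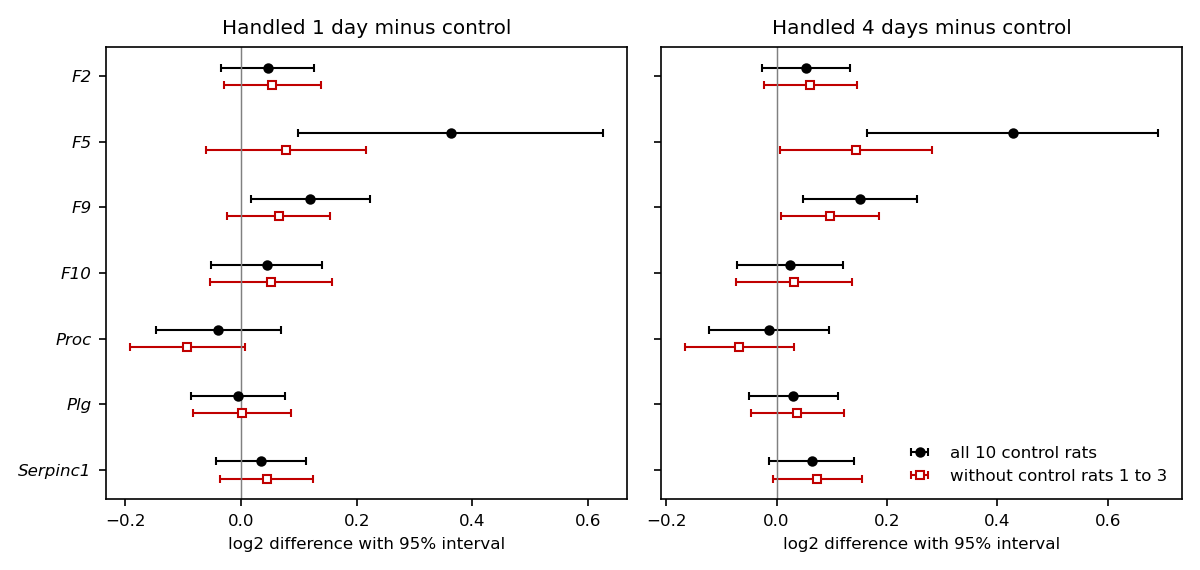
Log2 difference from control for each of the 7 genes after 1 day (left) and 4 days (right) of handling, with 95% intervals from limma, using all 10 control rats (filled circles) or leaving out control rats 1 to 3 (open squares). For F5 the difference is 0.36 and 0.43 with all control rats and 0.08 and 0.14 without these 3, and the other genes move by less.

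The plot of differences puts both sets of controls side by side. Leaving out control rats 1 to 3 also narrowed the F5 interval, to -0.06 to 0.22 after 1 day and 0.01 to 0.28 after 4 days. With control rats 4 to 10 alone, 0 of 7 members was called on either day, where 0.329% of all probe sets was called for 1 day and 0.828% for 4 days.

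Control rats 1 to 3 stood apart across the arrays, so they are described beside control rats 4 to 10 with no test. F5 in control rats 1 to 3 was 0.518-fold of its level in control rats 4 to 10, a log2 difference of -0.95. It was the only member of the 7 whose values did not overlap between these rats, where all 3 lay below the other 7 in 7.53% of all probe sets and above them in 6.36%. Among the 393 probe sets at least as bright as the dimmest member, all 3 lay below in 23.2% and above in 10.2%, so 1 of 7 is not more than the share at this brightness. All 3 lay below all 27 other rats in 3.03% of probe sets. For F9 and Proc the log2 difference was -0.18 each, and for F2, F10, Plg and Serpinc1 it was 0.02 to 0.03.

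The vitamin K cycle, carboxylation, folding and export were followed in 9 genes. Of these, 6 lay above all of control rats 4 to 10 in all 3 rats, where 6.36% of all probe sets did, 1, Furin, lay below, and Vkorc1l1 and P4hb overlapped. The list was chosen with earlier results of these data known, so this count is a description. The median log2 difference of the 9 genes was 0.44, against -0.01 over all probe sets. Vkorc1, the reductase that recycles vitamin K, had an intensity of 22.9, 24.3 and 29.7 (lowest, median, highest) in control rats 1 to 3, against 12.4, 14.8 and 17.4 in control rats 4 to 10. Ggcx, the carboxylase that uses vitamin K, had 2.05, 2.09 and 2.68, against 0.834, 1.53 and 1.86. In both genes the 2 sets of control rats did not overlap.

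Lman1 and Mcfd2 encode the cargo receptor that carries factors V and VIII out of the endoplasmic reticulum. Mcfd2 had 14.4, 15.1 and 15.5 in control rats 1 to 3, against 9.41, 11.2 and 11.7 in control rats 4 to 10. Lman1 had 0.395, 0.412 and 0.478, against 0.257, 0.324 and 0.370. In both genes all 3 rats lay above control rats 4 to 10, and the same held for the folding enzyme gene Pdia6. The low F5 of these rats was not more than the share at its brightness, and a link between F5 and these genes was not tested. Calu, a calcium-binding protein of the secretory pathway, was the sixth gene that was higher in all 3 rats.

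Among the 25 measured genes of the other clotting and fibrinolysis list, 2 lay below control rats 4 to 10 in all 3 rats and 2, Serpina5 and Tfpi, above, counts that are near the 7.53% and 6.36% of all probe sets. The 2 low genes were Klkb1 and F12, and with counts near these shares no pathway is read from them. Serping1, an inhibitor of the contact system, overlapped, with 22.3 to 25.7 in control rats 1 to 3 and 22.6 to 26.4 in control rats 4 to 10. Klkb1, which encodes plasma prekallikrein of the contact system, had 8.87, 10.4 and 13.3 in control rats 1 to 3, against 15.4, 16.3 and 18.2 in control rats 4 to 10, and lay below all 27 other rats. F12, the gene for factor XII, which starts the contact system, had 19.6, 21.0 and 21.7, against 22.2, 23.0 and 25.2. These genes outside the 9 were named here after their values were seen.

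**Figure D3:**
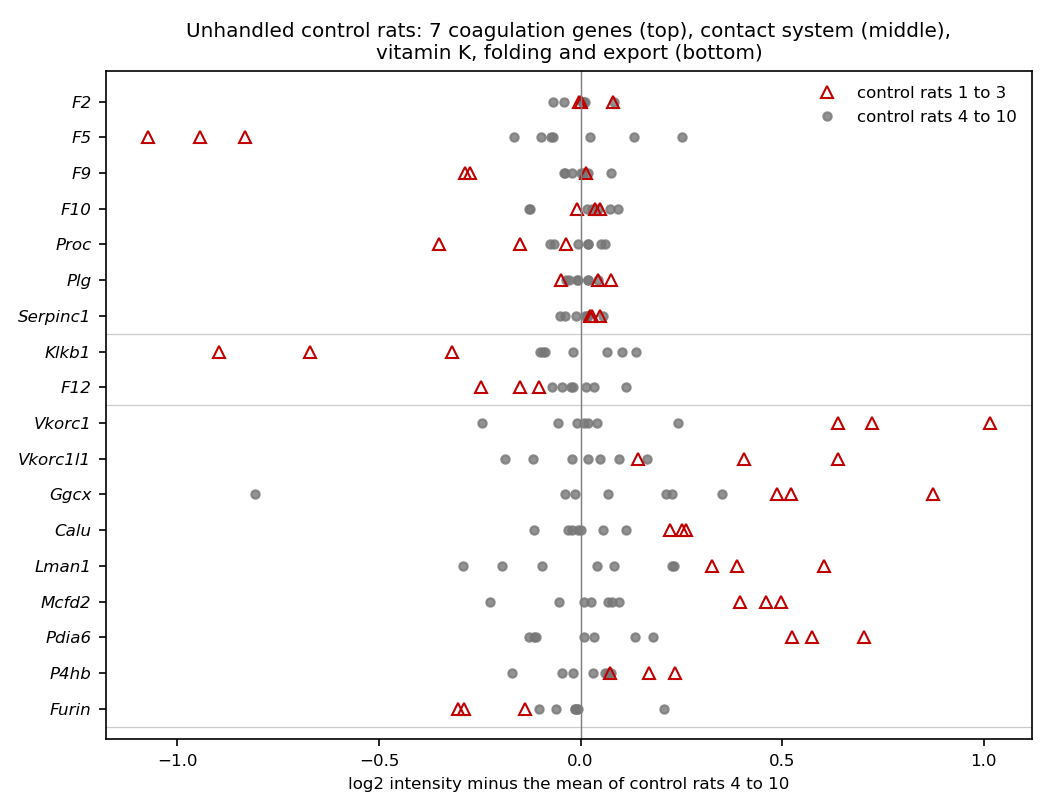
Log2 intensity of each of 10 control rats minus the mean of control rats 4 to 10, for the 7 measured genes, 2 contact system genes and 9 genes of the vitamin K cycle, folding and export. The 2 contact system genes were picked after their values were seen, and Serpina5 and Tfpi, which lay above, are not shown. Control rats 1 to 3 (open triangles) sit left of the other rats in F5, Klkb1, F12 and Furin and right of them in Vkorc1, Ggcx, Calu, Lman1, Mcfd2 and Pdia6.

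The plot of the control rats shows that no other member was low in all 3 rats as F5 was. It also shows that 6 of the 9 genes of the vitamin K cycle and of export lay above control rats 4 to 10, where 6.36% of all probe sets did. Vkorc1l1 and the folding enzyme gene P4hb overlapped, and Furin, a protease that trims propeptides, lay below.

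Other cell types were followed with marker genes, some of them dim. The 1 measured B cell marker had a median intensity of 0.0714 in control rats, against 0.122 over all probe sets. Whether such cell types were detected cannot be told from these values. The summed intensity of 6 hepatocyte markers was 257 to 281 after 1 day, 252 to 291 after 4 days and 253 to 295 in control rats. The sum of 5 measured markers of sinusoidal endothelium, of 6 in the list, was 15.0 to 16.2 in control rats 1 to 3. It was 17.4 to 18.8 in control rats 4 to 10, without overlap, and 17.2 to 20.2 after 1 day and 14.8 to 18.8 after 4 days. Singly, 2 of the 5 genes, Pecam1 and Fcgr2b, lay below in all 3 rats, where 7.53% of all probe sets did. The sums of the other cell types overlapped between these control rats, and a sum is carried by its brightest genes. Platelet markers, 4 of 6 measured, summed to 0.631 to 0.937 after 1 day, 0.649 to 0.998 after 4 days and 0.624 to 0.991 in control rats. The only marker gene called in either comparison with control was Nkg7, 1 of 4 T and NK cell genes, after 4 days, where 0.657% of all probe sets was called. Nkg7 was dim, with a mean log2 intensity of -2.62, and fell by 0.42 on the log2 scale (limma, adjusted p = 0.0902). Of the same 4 genes 3 were lower and 1, Cd3e, was higher, by 0.27 (limma, adjusted p = 0.678). In whole liver, fewer cells of a type and less RNA per cell cannot be told apart, and the part of these cells in the F5 levels was not tested.

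RNA quality was followed as the signal at the 3′ end of Gapdh over that at its 5′ end. On the log2 scale this ratio was 0.662 to 0.828 in rats handled for 1 day, 0.701 to 0.963 in rats handled for 4 days and 0.55 to 0.701 in control rats. It was 0.641 to 0.686 in control rats 1 to 3, within the range of control rats 4 to 10. After 1 and 4 days, 7 and 10 of the 10 handled rats lay above every control rat. The same ratio of beta-actin was 2.61 to 3.19, 2.73 to 3.83 and 2.20 to 3.21 in these groups. With the Gapdh ratio in the fit, F5 had differences of 0.35 and 0.41 (limma, adjusted p = 0.665 and 0.536) and F9 of 0.14 and 0.17 (adjusted p = 0.662 and 0.503). Since the ratio runs with the groups, this fit cannot tell RNA quality and handling apart.

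The rest of the clotting and fibrinolysis system was examined in 30 genes, of which 25 had a probe set. None was called after 1 or 4 days (limma, 0 of 25), and 1, Serpina10, was called by limma's F test over 3 groups, against 0.306% of all probe sets. At an unadjusted p under 0.05, 3 were higher and 1 lower after 1 day, where 4.47% of all probe sets were higher and 4.86% lower, and 4 were higher and 1 lower after 4 days, where the shares were 5.4% and 5.89%. The same shares apply to the lists that follow. The median log2 difference of the 25 genes was 0.03 on both days.

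Serpina10, which encodes the protein Z dependent inhibitor of factor X, was called by the F test over 3 groups (limma, adjusted p = 0.0963) but in neither pairwise comparison. Its intensity was 15.5, 17.0 and 18.1 (lowest, median, highest) after 1 day, 13.9, 16.2 and 17.6 after 4 days, and 12, 14.3 and 15.6 in control rats. The ranges after 1 day and in control rats overlapped only between 15.5 and 15.6, and the log2 difference was 0.24 (limma, adjusted p = 0.107), against 0.19 after 4 days (adjusted p = 0.141). With control rats 1 to 3 left out the differences were 0.21 and 0.15, and the F test no longer called the gene (adjusted p = 0.197). Procr, the receptor that holds protein C on endothelium, gave a dim signal of 0.0623 to 0.179 after 1 day, 0.0591 to 0.151 after 4 days and 0.0977 to 0.249 in control rats. Its log2 difference was -0.66 and -0.70 (limma, adjusted p = 0.289 and 0.146). F12 had log2 differences of 0.05 and 0.13 (adjusted p = 0.784 and 0.260), which were -0.00022 and 0.08 without control rats 1 to 3. Serping1, the inhibitor of the contact system and of complement C1, had log2 differences of 0.15 and 0.14 (adjusted p = 0.432 and 0.340).

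**Figure D4:**
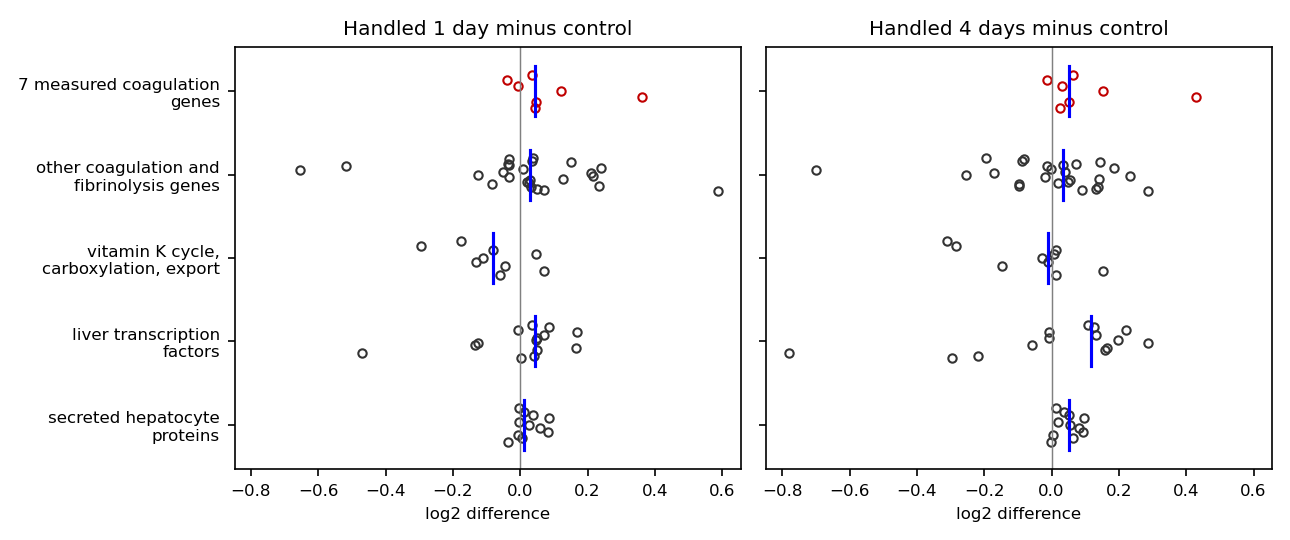
Log2 difference from control after 1 day (left) and 4 days (right) of handling for each measured gene of 5 lists, with a vertical bar at the list's median. With all control rats no gene of these lists was called in either comparison shown, and the medians lie between -0.08 and 0.12.

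The plot of the lists sets the 7 genes beside genes that share their biology. Of the 9 genes of the vitamin K cycle, carboxylation and export, 0 were called (limma), and 0 higher and 1 lower after 1 day and 1 higher and 2 lower after 4 days at an unadjusted p under 0.05. Vkorc1l1, a paralog of Vkorc1, had an intensity of 0.655, 0.767 and 0.948 (lowest, median, highest) after 1 day, 0.578, 0.726 and 0.759 after 4 days and 0.702, 0.841 and 1.25 in control rats. Its log2 difference was -0.17 and -0.31 (adjusted p = 0.545 and 0.129). Vkorc1 had log2 differences of -0.29 and -0.28 (adjusted p = 0.433 and 0.336), with 12.3 to 17.1 after 1 day, 12.7 to 16.3 after 4 days and 12.4 to 17.4 in control rats 4 to 10. Both handled groups of Vkorc1 thus overlapped control rats 4 to 10 nearly in full. When control rats 1 to 3 were left out the differences were -0.06 and -0.19 for Vkorc1l1 and -0.06 and -0.05 for Vkorc1. Furin had log2 differences of 0.07 and 0.15 (adjusted p = 0.763 and 0.329) with all control rats and -0.0038 and 0.08 without these 3. Mcfd2 had -0.11 and -0.03 with all control rats and 0.03 and 0.11 without them, so its direction turned.

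Among 15 liver transcription factors 14 were measured and 0 were called (limma). At an unadjusted p under 0.05 there were 0 after 1 day, and 1 higher and 2 lower after 4 days. With control rats 1 to 3 left out, 1 was called on both days, Dbp, a transcription factor under control of the circadian clock, named here after its values were seen. Dbp had an intensity of 0.233, 0.425 and 2.34 (lowest, median, highest) after 1 day, 0.245, 0.391 and 0.762 after 4 days, 0.128, 0.15 and 0.162 in control rats 1 to 3 and 0.88, 1.23 and 2.14 in control rats 4 to 10. Against control rats 4 to 10 alone it was lower by 1.42 and 1.73 on the log2 scale (limma, adjusted p = 0.0752 and 0.0180). With all control rats the differences were -0.47 and -0.78 (adjusted p = 0.796 and 0.555). Control rats 1 to 3 had lower Dbp than every other rat and were set apart in these same data. The call thus depends on leaving them out and is a description. Hnf4a, the nuclear receptor that drives many clotting genes, had an intensity of 14.0, 16.1 and 18.1 (lowest, median, highest) after 1 day, 15.5, 17.8 and 20.1 after 4 days, and 13.4, 15.4 and 19.4 in control rats. Its log2 difference was 0.05 and 0.20 (adjusted p = 0.869 and 0.235), and -0.01 and 0.14 without control rats 1 to 3. Cebpa and Cebpb, leucine zipper factors of liver genes, had log2 differences of 0.0034 and 0.04 after 1 day and of -0.30 and -0.22 after 4 days (adjusted p = 0.355 and 0.386 after 4 days). Cebpa had 0.13 and -0.17 without control rats 1 to 3. Nr2f2, an orphan nuclear receptor, had 0.07 and 0.13.

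Of 12 other proteins that hepatocytes secrete, 11 were measured and 0 were called (limma), with 0 after 1 day and 1, Hpx, after 4 days at an unadjusted p under 0.05. Hpx, the gene for the haem carrier hemopexin, had log2 differences of 0.09 and 0.10 (adjusted p = 0.581 and 0.408). Apob and Apoh, genes of lipoprotein and phospholipid-binding proteins, had log2 differences of 0.06 and 0.03 on the first day and 0.08 and 0.05 after 4 days. Apoa1, the main protein of high density lipoprotein, had 0.08 and 0.09 with all control rats and -0.03 and -0.02 without control rats 1 to 3, so its direction turned. The list's median was 0.01 and 0.05.

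Finally, each measured member was set beside the 14216 other genes for likeness from rat to rat, after centring within control rats 1 to 3, control rats 4 to 10 and each handled group. All points share the array they come from, so these correlations over 30 rats are a description. Those named are the 3 highest of 14216 for each member, so high values arise from the choice itself and no link is read from them. For F5 the nearest genes were Mcl1, with a Pearson correlation of 0.711, Frmpd2 with 0.71 and Rnf20 with 0.704. For F9 they were Scrn1 (0.694), Zfp395 (0.693) and Poglut3 (0.682), and for F2 Dsg1 (0.688), Sox21 (0.687) and Isoc2a (0.649). For F10 they were Nupr1 (0.766), Prlr (0.752) and Dynll2 (0.744), and for Proc Mif4gd (0.778), Arhgef3 (0.746) and Stap2 (0.719). For Plg they were Surf1 (0.693), Slc25a32 (0.684) and Rlim (0.655). Serpinc1 had Cyp2c7 (0.743), Serpina1 (0.728) and Mgst1 (0.663), and Serpina1 is itself a secreted hepatocyte serpin. Among the members themselves, F2 and F10 had the highest correlation, 0.610, and Proc and Serpinc1 the lowest, -0.390.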

How the data were processed

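Total RNA of 30 livers was labelled and hybridised to 1 array each. The deposited table gives each probe set a linear intensity on each array, which the authors had processed in Affymetrix and Rosetta Resolver software. The summary method and the scaling are not given in the sources used here, and every array has a mean near 1 (1.0078 to 1.0118), so only relative levels can be read. The authors' log10 ratios were not used here. The number of arrays limits the precision.

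After 57 Affymetrix controls were removed, 31042 of 31099 probe sets were kept. Of these, 20826 carry 1 gene symbol, 436 several and 9780 none. Log2 intensities with no offset were fitted for all 3 groups together by lmFit and eBayes of limma 3.58.1 (R 4.3.3, two-sided tests), with Benjamini-Hochberg adjustment over 31042 probe sets and a call at an adjusted p under 0.1. The fit was tested on simulated data. In lists a gene is represented by its brightest probe set. No 2 arrays were identical (r 0.9462 to 0.9755).

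Members and lists were chosen with earlier results of these data known. Named were all members, called genes and up to 4 genes per list with the smallest p, and for likeness the 3 nearest genes. Alternatives were an offset of 0.05, quantile normalization, array weights, an intensity trend, the Gapdh ratio as a covariate, a replicate block, fits of 2 groups, the t-test or analysis of variance of the methods, the exact rank-sum test, 2 other thresholds, leaving out the dimmest 40% of probe sets, control rats 1 to 3, or each rat in turn. Rats are separate animals, and replicate numbers were not taken to link them. Promoters and gene names came from RefSeq (GRCr8), and the files hold no positions. Plots were made with matplotlib 3.10.9 under Python 3.11.15.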

Additional observations from a re-analysis of the deposited data

Results flagged for a closer look

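In the 21 sets of 10 rats formed by 7 genes and 3 groups, the extreme rat was compared with its neighbour by Dixon's ratio of gap to range, and 4 sets exceeded the 95% critical value, where chance gives about 1 in 20. For Proc this was the case in all 3 groups: rat 3 handled for 1 day was highest at an intensity of 18.3 (ratio 0.47), rat 10 handled for 4 days was lowest at 14.8 (ratio 0.514), and control rat 2 was lowest at 13.5 (ratio 0.485). For F2, rat 7 handled for 1 day was highest at 46.1 (ratio 0.504). The 3 low control rats of F5 stood together, so no single rat was apart from its neighbour there.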

How the results depend on the processing

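Under all 13 alternatives F5 and F9 kept their direction on both days, at 0.08 to 0.38 and 0.14 to 0.45 (F5) and 0.07 to 0.14 and 0.10 to 0.17 (F9) on the log2 scale after 1 and 4 days. No member was called after 1 day. After 4 days 2 were called without the dimmest 40% of probe sets, F5 (adjusted p = 0.0885) and F9 (0.0959), where fewer probe sets are tested, 2 by the exact rank-sum test and 1 by the methods' t-test, whose analysis of variance over 3 groups also called 1, Serpinc1. Leaving out each rat in turn gave 0 to 1 members called after 4 days, the 1 being F5 without control rat 10 (0.49, adjusted p = 0.0869), and 0 to 0 in the other comparisons. Near 0, signs turned for Serpinc1 between the handled groups with quantile normalization (-0.001402), Proc after 4 days with the Gapdh covariate (0.02682) or without rat 10 handled for 4 days (0.003285), Plg after 1 day without control rats 1 to 3 (0.001878) or control rat 1 (0.002199), and F2 between the handled groups without rat 7 handled for 4 days (-0.001192). The ranges over left-out rats were -0.04658 to 0.003285 for Proc after 4 days, -0.0115 to 0.002199 for Plg after 1 day and -0.001192 to 0.01703 for F2 between the handled groups.

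Over all probe sets 28 were called after 1 day, 204 after 4 days, 0 between handled groups and 95 over 3 groups. In the order 1 day, 4 days and 3 groups, the calls were 45, 346 and 146 with the offset, 69, 370 and 211 with the intensity trend, 0, 5 and 2 with the Gapdh covariate (1 between handled groups), 1, 70 and 30 at an adjusted p under 0.05, and 113, 490 and 294 without the dimmest 40%. Array weights gave 43 over 3 groups, fits of 2 groups 1 and 27 after 1 and 4 days, and the methods' t-test 55 after 1 day and 206 over 3 groups. An unadjusted p under 0.001 gave 144 after 1 day, 33 between handled groups and 193 over 3 groups. Without control rats 1 to 3 there were 102 after 1 day and 154 over 3 groups. Leaving out each rat gave 1 to 44 after 1 day, 86 to 307 after 4 days, lowest without control rat 3 and highest without control rat 7, and 10 to 115 over 3 groups, lowest without control rat 3. The cause of these shifts was not tested.

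Replicate numbers were not taken to pair the rats, which are separate animals, and same-numbered rats had correlations of -0.0382 to 0.118. With a replicate block 2, 85 and 27 probe sets were called after 1 day, after 4 days and over 3 groups, and no member. As a hint from the data, 6 of 10 rats handled for 1 day and 2 of 10 handled for 4 days correlated best with the control rat of their own number, and 5 of 10 handled for 4 days with the rat of that number handled for 1 day, where chance gives about 1 of 10.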
